A study of Mus musculus with 15 samples.

Results

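The striated muscle miRNAs, or myomiRs, described here are mmu-miR-1a-3p, mmu-miR-206-3p, mmu-miR-133a-3p, mmu-miR-133b-3p, mmu-miR-208a-3p, mmu-miR-208b-3p and mmu-miR-499-5p. They were chosen by name from the miRNA count table, in which each of the 7 has a row of its own, out of 1205 rows in all. The table holds small RNA sequencing of plasma freed of cells and platelets, from male wild type C57BL/6J mice 24 h after surgery. The surgery was cecal ligation and puncture (CLP), which spills gut bacteria into the abdomen and is a model of polymicrobial sepsis, in 9 libraries, or a sham operation in 6. The labels do not say whether each library is a separate mouse, so a p-value speaks only to the variation among these samples, which may be technical. Library totals ran from 5274676 to 13576482 counts. The sequencing numbers of the libraries put the sham group before the CLP group, so an effect of handling order and one of surgery cannot be told apart.

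Striated muscle is skeletal muscle and heart. miR-1 and miR-133a are cut from shared primary transcripts in both, and miR-206 and miR-133b from a shared transcript found mostly in skeletal muscle. miR-208a, miR-208b and miR-499 lie in introns of myosin heavy chain genes, so their making follows that of the contractile proteins: miR-208a is known from the heart, and miR-208b and miR-499 from the heart and from slow skeletal fibres. Plasma holds little of these miRNAs unless muscle cells release them, which is why they are studied as blood markers of muscle and heart injury. In plasma, more releasing cells and more RNA per cell cannot be told apart.

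Mature sequences for 5 of the 7 were matched by name in RefSeq (GRCm38.p6). miR-1a-3p and miR-133a-3p were not matched. The sequences below show which of the 5 matched members share a seed, the stretch from base 2 to base 8 that pairs with targets. They also show how far reads of the 2 miR-208 members can be told apart. The seed is in capitals and each sequence is written 5′ to 3′.
miR-206-3p: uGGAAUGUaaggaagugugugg
miR-133b-3p: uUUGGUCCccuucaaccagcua
miR-208a-3p: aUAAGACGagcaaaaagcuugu
miR-208b-3p: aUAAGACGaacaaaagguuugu
miR-499-5p: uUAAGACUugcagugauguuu
miR-208a-3p and miR-208b-3p have the same seed and differ at 3 of 22 bases, written from miR-208a-3p to miR-208b-3p and counted from the 5′ end as G10A, A16G and C18U. The seed of miR-499-5p differs from theirs at its last base (G8U). None of the other rows with a known sequence shared the seed of miR-206-3p, miR-133b-3p or miR-499-5p, among 1003 rows searched. The search could not include miR-1a-3p, which is known to share the seed of miR-206-3p. Nor could it include miR-133a-3p, which is known to share that of miR-133b-3p. GC content was 45.5% for miR-206-3p, 50.0% for miR-133b-3p, 36.4% for miR-208a-3p, 31.8% for miR-208b-3p and 33.3% for miR-499-5p.

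The hairpins fall into pairs on the genome (GRCm38, GENCODE M21). Mir206 (chromosome 1, 20679010 to 20679082, plus strand) and Mir133b (20682769 to 20682887, plus strand) both overlap exons of the long noncoding RNA gene Gm28653, with 3686 bases between them. Mir1a-1 (chromosome 2, 180389048 to 180389124) and Mir133a-2 (180398379 to 180398482) lie on the plus strand with 9254 bases between them, outside any other annotated gene. miR-1a-3p and miR-133a-3p also have other hairpins, among them Mir1a-2, which are not placed here. Mir208a (chromosome 14, 54949060 to 54949142, minus strand) lies in an intron of Myh6, the fast heart myosin gene of the mouse, and Mir208b (54975700 to 54975776, minus strand) in an intron of its neighbour Myh7, the slow myosin gene. Mir499 (chromosome 2, 155622880 to 155622958, plus strand) lies in an intron of Myh7b.

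The question put to these members was whether their plasma levels differ between mice with polymicrobial sepsis and mice with a sham operation. Levels are in CPM, read counts divided by a library's size after TMM scaling, which evens out differences in composition. Of the 7 members, 4 were higher in CLP at an adjusted p under 0.05 (edgeR's quasi-likelihood test, Benjamini-Hochberg over 426 tested miRNAs) and 0 were lower. The 4 were miR-1a-3p, miR-206-3p, miR-208b-3p and miR-499-5p. Over all 426 tested miRNAs 25.4% were called higher, 21.8% lower and 47.2% in either direction. That is 108 higher and 93 lower, against 90 and 126 with plain library size scaling, which shifted the median of all miRNAs from 0.11 to -0.12 and turned no member. The median log2 fold change was 1.94 over the members and 0.11 over all tested miRNAs. All 7 passed the filter on low counts, which asks for 1.37 CPM of unscaled library size in 6 libraries. Of these, 3 would not have passed on sham libraries alone: the level was reached there in 5 of 6 for miR-208a-3p, 3 for miR-499-5p and 0 for miR-208b-3p. Passing through the group where a member is high favours a difference, so the count of 4 and the median are descriptions. In no member did every CLP library lie above every sham library, a separation that 8.45% of all tested miRNAs had.

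**Figure D1:**
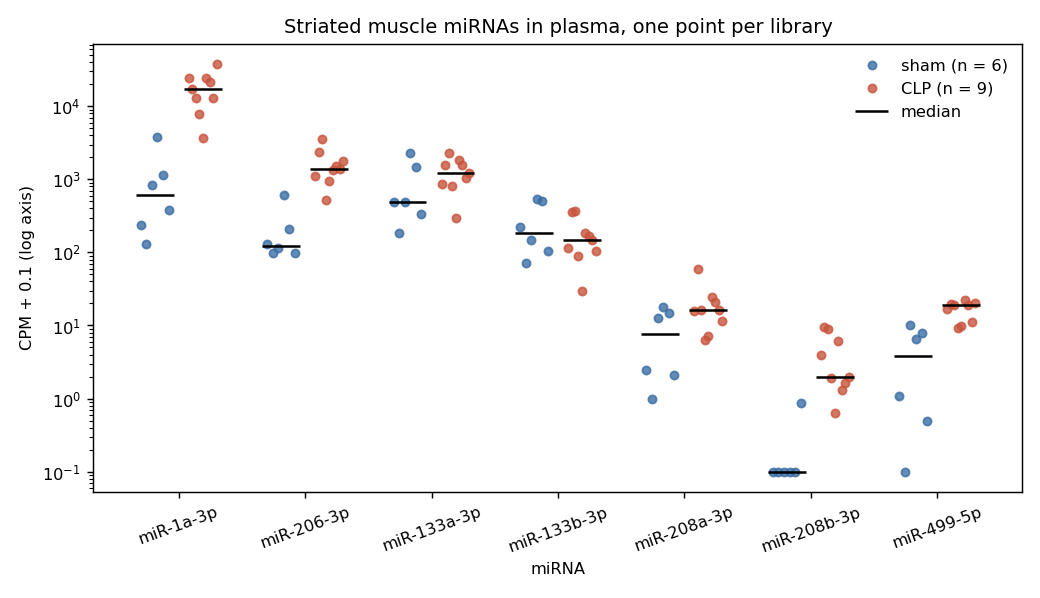
CPM + 0.1 on a log axis for the 7 miRNAs, with one point per library (6 sham, 9 CLP) and a bar at each median. miR-1a-3p and miR-206-3p sit mostly above the sham points in CLP, whereas the points of miR-133a-3p and miR-133b-3p overlap.

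miR-1a-3p is the most abundant miRNA of heart and skeletal muscle. It had the second highest log2 fold change of all tested miRNAs. In sham it was 234.9 CPM in library 1, 130.3 in 2, 828.3 in 3, 3765 in 4, 1148 in 5 and 379.0 in 6. In CLP it ran from 3730 CPM in CLP 5 through a median of 17025 to 37526 in CLP 9. The groups overlapped at one point, where CLP 5 lay just under sham 4, and the other 8 CLP libraries exceeded every sham library. Mean levels were 1081 ± 1370 CPM (SD, n = 6) and 18065 ± 10219 (n = 9). CLP was thus 16.7-fold higher, a log2 fold change of 4.06 ± 0.74 (SE; edgeR adjusted p = 0.000247). On leaving out a library it ranged from 3.75 without sham 2 to 5.0 without sham 4. It stayed past the threshold on leaving out each of the 15 libraries in turn (edgeR adjusted p up to 0.00142). The read count of this row was whole in every library.

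miR-206-3p, found mostly in skeletal muscle, was lower than miR-1a-3p in level and also rose. Sham libraries held 129.4, 97.2, 115.6, 604.9, 212.1 and 99.6 CPM in the order of their numbers. CLP libraries ran from 514.7 CPM in CLP 4 through a median of 1402 to 3560 in CLP 3. Sham 4 again stood above the other sham libraries, and 8 of 9 CLP libraries exceeded it. The mean went from 210 ± 198 CPM (SD, n = 6) to 1616 ± 899 (n = 9). This was a 7.70-fold rise, with a log2 fold change of 2.95 ± 0.50 (SE; edgeR adjusted p = 0.000146). On leaving out a library it ranged from 2.63 without CLP 3 to 3.56 without sham 4.

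**Figure D2:**
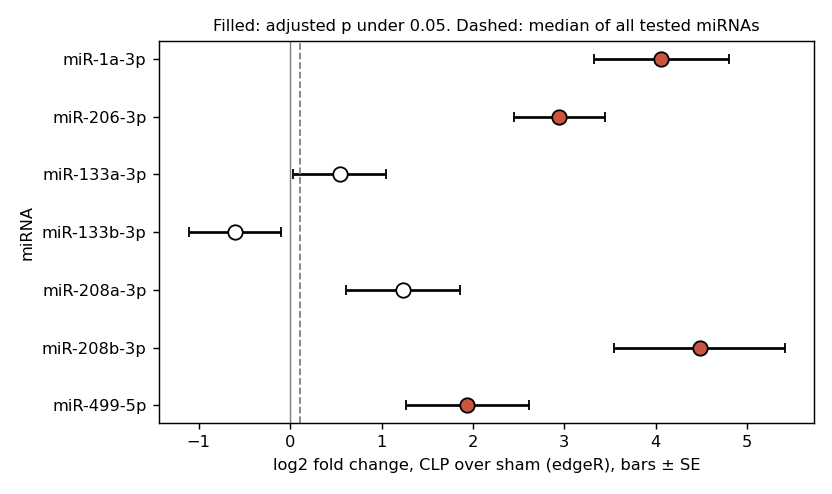
Log2 fold change of CLP over sham for each of the 7 miRNAs with its SE, from edgeR. Filled points passed the threshold (miR-1a-3p, miR-206-3p, miR-208b-3p and miR-499-5p), and the dashed line marks the median of all tested miRNAs, 0.11.

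miR-133a-3p, the transcript partner of miR-1a-3p, did not pass. It was 490.5, 181.5, 490.9, 2316, 1477 and 335.1 CPM in sham 1 to 6, and from 298.8 CPM in CLP 5 through a median of 1240 to 2320 in CLP 3. The groups overlapped almost wholly: only CLP 3 exceeded the highest sham library, although 8 of 9 CLP libraries were above the sham median. Its log2 fold change was 0.54 ± 0.50 (SE; edgeR adjusted p = 0.400). Leaving out sham 2 gave 0.25 and leaving out sham 4 gave 1.06, neither of which passed. The other arm of the same hairpin, miR-133a-5p, was scarce and also did not pass, at 7.05 ± 6.33 CPM in sham (SD, n = 6) against 6.10 ± 3.13 in CLP (n = 9) (log2 fold change -0.20 ± 0.54, edgeR adjusted p = 0.778).

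miR-133b-3p, the transcript partner of miR-206-3p, was 225.1, 72.0, 148.9, 543.4, 497.8 and 103.6 CPM in sham 1 to 6. In CLP it ran from 29.2 CPM in CLP 5 through a median of 149.0 to 365.8 in CLP 3. Only 2 of 9 CLP libraries were above the sham median, and only CLP 5 lay below every sham library. Its log2 fold change was -0.60 ± 0.51 (SE; edgeR adjusted p = 0.348). With the haemolysis index described below as a covariate it was -1.38 (edgeR adjusted p = 0.0420), while that of miR-133a-3p was 0.06 (0.940). Both miR-133 rows held fractional counts in 7 of 15 libraries, a sign of reads shared out between miRNAs. The number of such reads is not known, so the 2 levels, and above all their ratio, are uncertain.

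Of the miRNAs in myosin introns, miR-208b-3p was the rarest. It had 0 counts in sham 1 to 5 and 8 counts in sham 6, against 6 to 100 counts in the 9 CLP libraries. A count of 0 allows up to 3 counts, or between 0.385 and 0.502 CPM in those 5 sham libraries (counting error only). In CLP it was 3.79, 9.29, 8.73, 1.84, 0.529, 6.08, 1.20, 1.56 and 1.89 CPM in libraries 1 to 9. Sham 6 held 0.772 CPM, more than CLP 5 and less than the other 8 CLP libraries. The log2 fold change was 4.48 ± 0.93 (SE; edgeR adjusted p = 0.000683), the largest of all tested miRNAs. Its size rests on the 8 counts of sham 6: without that library every sham library was at 0 and the fitted value was 7.93, which depends on the prior count and is no bound. miR-208b-3p passed the filter on low counts through 6 CLP libraries and 0 sham libraries, which limits what its p and its rank show.

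miR-208a-3p, of the heart myosin gene Myh6, was 2.35, 0.897, 12.7, 17.7, 14.8 and 2.03 CPM in sham 1 to 6. In CLP it ran from 6.30 CPM in CLP 4 through a median of 16 to 60.1 in CLP 2. Only 3 CLP libraries exceeded every sham library. The log2 fold change was 1.24 ± 0.62 (SE; edgeR adjusted p = 0.110). It was 0.76 without CLP 2, and with limma voom it was 1.74 and passed (adjusted p = 0.0172).

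miR-499-5p, of the myosin gene Myh7b, was 0.968, 0, 10.1, 6.52, 7.87 and 0.386 CPM in sham 1 to 6, that is 0 to 66 counts. In CLP it ran from 9.06 CPM in CLP 4 through a median of 19.1 to 22.1 in CLP 6, or 69 to 280 counts. CLP 4 and CLP 5 lay below sham 3, and the other 7 CLP libraries exceeded every sham library. The log2 fold change was 1.94 ± 0.67 (SE; edgeR adjusted p = 0.0244). It passed the filter on low counts through the CLP libraries, which limits what its p shows. The call was lost without sham 1 (edgeR adjusted p = 0.0559) or sham 6 (0.0560), with no filter on low counts (0.0714), in the 12 libraries numbered 1 to 6 (0.0783) and with the GC trend removed (1.39, 0.0888). With limma voom it was 3.28 and passed (adjusted p = 0.000804). The spread relative to the mean was narrower in CLP than in sham, with coefficients of variation of 30.9% and 102% (not tested). The same direction held in every member, and the sham value here includes libraries with few or 0 counts.

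Libraries also differed in how levels moved with GC content. Across tested miRNAs with a sequence, log2 CPM relative to the mean of all libraries changed by 0.233 on average per 10 percentage points of GC in sham and by -0.155 in CLP. With that trend removed, the log2 fold change was 2.78 for miR-206-3p (edgeR adjusted p = 0.000328), 3.86 for miR-208b-3p (0.00246), 0.75 for miR-208a-3p (0.335) and -0.60 for miR-133b-3p (0.348). It was not computed for miR-1a-3p and miR-133a-3p.

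Members cut from shared transcripts differed in their fold changes. Such pairs, and pairs that share a seed, were compared as 5 ratios within a library, which do not depend on scaling. The ratios were not corrected for the GC trend, which a ratio does not cancel where 2 miRNAs differ in GC content. The part of that trend in the ratios was not tested. miR-1a-3p and miR-133a-3p were read about equally in sham, with a log2 ratio of -0.05 ± 0.72 (SD, n = 6) and values from -1.06 in sham 1 to 0.75 in sham 3. In CLP the log2 ratio was 3.75 ± 0.75 (n = 9), from 2.49 in CLP 3 to 4.92 in CLP 9. Every CLP library lay above every sham library. The difference was 3.79, or 13.9-fold (exact two-sided permutation p = 0.0002, the floor for 5005 permutations, and 0.000333 after Benjamini-Hochberg adjustment over 5 ratios).

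miR-206-3p over miR-133b-3p moved by nearly as much. The log2 ratio was -0.31 ± 0.62 (SD, n = 6) in sham, from -1.23 in sham 5 to 0.43 in sham 2. In CLP it was 3.34 ± 0.77 (n = 9), from 2.51 in CLP 4 to 5.01 in CLP 5, again with no overlap. The difference was 3.65, or 12.6-fold (exact permutation p = 0.0002, adjusted 0.000333). The skew held in CLP 5 too, where the levels of 4 members were the lowest of the CLP group.

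**Figure D3:**
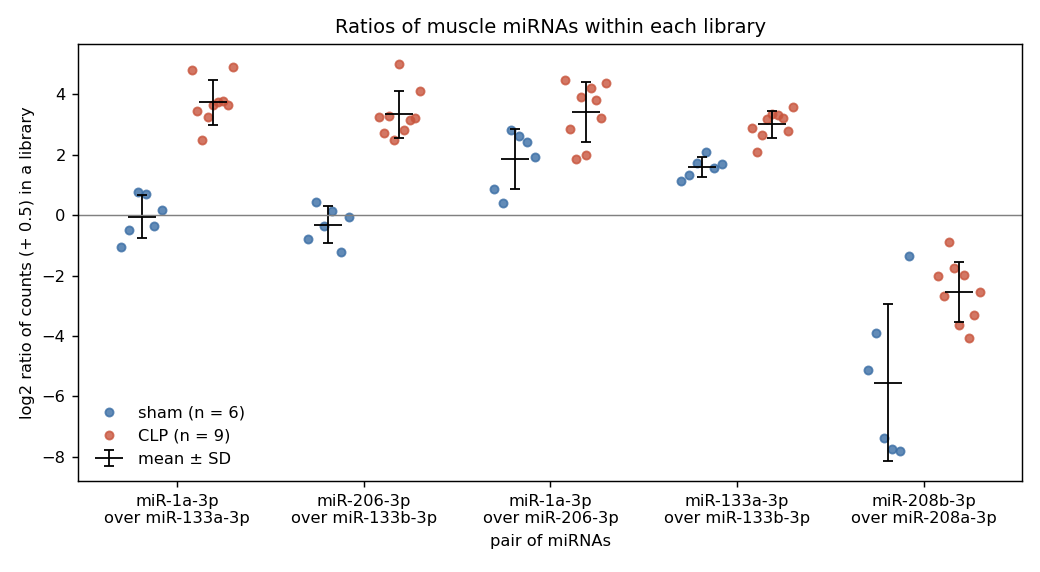
Log2 ratio of counts (+ 0.5) of 2 muscle miRNAs within each library, one point per library, with the mean and SD of 6 sham and 9 CLP libraries. The first 2 pairs and miR-133a-3p over miR-133b-3p show no overlap between the groups.

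Differences were smaller for the ratios within the miR-133 pair and between miR-1a-3p and miR-206-3p. miR-133a-3p over miR-133b-3p had a log2 ratio of 1.59 ± 0.34 in sham (SD, n = 6) against 3.01 ± 0.45 in CLP (n = 9). The highest sham value was 2.09 and the lowest CLP value 2.10, so the groups touched without overlap (difference 1.42, exact permutation p = 0.0002, adjusted 0.000333), subject to the divided reads above. miR-1a-3p over miR-206-3p was 1.85 ± 1.0 (n = 6) and 3.41 ± 0.99 (n = 9), and 7 of the 9 CLP values exceeded the highest sham value (difference 1.56, exact permutation p = 0.0126, adjusted 0.0126).

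Sham libraries averaged -5.55 ± 2.60 (SD, n = 6) for miR-208b-3p over miR-208a-3p and CLP libraries -2.54 ± 1.0 (n = 9), which differ by 3.01 (exact permutation p = 0.00819, adjusted 0.0102). With 5 sham libraries at 0 counts of miR-208b-3p, this ratio is set there by the pseudocount of 0.5. With a pseudocount of 2 the difference was 1.5 and did not pass (exact permutation, adjusted p = 0.0729), and with 0.1 it was 4.90. Sham 6, where miR-208b-3p was read, had a ratio of -1.34, which was above 8 of the 9 CLP libraries.

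Together the 7 members took 0.275% ± 0.291 (SD, n = 6) of all counts in sham and 2.0% ± 1.05 (n = 9) in CLP. Within that sum miR-1a-3p held 37.9% ± 12.6 in sham and 83.1% ± 8.16 in CLP. miR-133a-3p went from 37.6% ± 6.05 to 6.66% ± 2.71 and miR-133b-3p from 13.1% ± 4.79 to 0.904% ± 0.554. For these 3, every CLP library lay beyond the sham range. The shares are parts of one sum, so a higher part of miR-1a-3p lowers those of the others, and the 3 are not separate results. The levels of miR-133a-3p and miR-133b-3p themselves did not pass. The share of miR-206-3p was 10.8% ± 5.06 and 9.15% ± 5.83. The myosin intron miRNAs held under 1% between them on average in both groups.

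**Figure D4:**
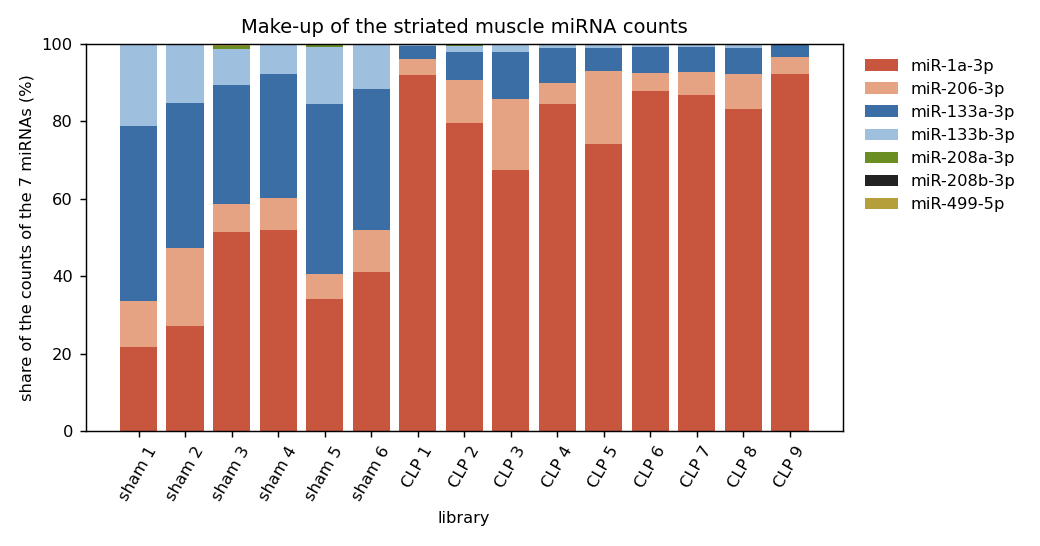
Share of each miRNA in the summed counts of the 7, in percent, one bar per library. miR-1a-3p averages 37.9% in the 6 sham bars and 83.1% in the 9 CLP bars, while miR-133a-3p averages 37.6% and 6.66%.

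The order of mean read levels in sham was miR-1a-3p, miR-133a-3p, miR-133b-3p, miR-206-3p, miR-208a-3p, miR-499-5p and miR-208b-3p. In CLP the mean of miR-206-3p moved up to the second place, ahead of miR-133a-3p, although miR-133a-3p was the higher in CLP 4, CLP 6 and CLP 7. The ranges of neighbours in that order overlapped in sham, except those of miR-206-3p and miR-208a-3p. Within each of the 6 sham libraries, miR-133a-3p exceeded miR-133b-3p and miR-208a-3p exceeded miR-499-5p. In CLP miR-1a-3p exceeded every other member in each library. Adapter ligation favours some ends, so these orders are of reads and not of molecules.

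Most members also varied together between libraries of a group. Sham 4 held the highest level of 5 of the 7 members, and sham 2 the lowest of all members other than miR-208b-3p, for which it was among those at 0. In CLP, CLP 5 was lowest for 4 members and CLP 4 for 3, while CLP 3 was highest for 3. Pearson's r of log2 CPM was above 0 in all 21 pairs of members in CLP, from 0.408 to 0.924 with a median of 0.683. It was above 0 in all 15 pairs in sham that leave out miR-208b-3p, from 0.571 to 0.975 with a median of 0.854. The 6 sham pairs with miR-208b-3p ran from -0.396 to -0.178, where that miRNA was at 0 in all libraries but sham 6. The members of each pair share a library, its depth and its scaling.

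Relations with miR-1a-3p were tested for the other 6 members in each group, 12 relations in all. Within CLP the closest was miR-499-5p, with r = 0.813 (n = 9, exact permutation p = 0.00563, adjusted 0.0459) and Spearman's rho = 0.850 (exact permutation p = 0.00607, adjusted 0.0668). Without CLP 5 and CLP 9, the libraries farthest from the median, r was 0.794. For miR-133a-3p in CLP r was 0.692 (exact permutation p = 0.0444, adjusted 0.0881) and rho 0.5 (p = 0.178, adjusted 0.305), and r was 0.199 without CLP 5, on which the relation rests. miR-206-3p had r = 0.408 (exact permutation p = 0.272, adjusted 0.297) and rho 0.367 (p = 0.336, adjusted 0.403). The remaining 3 also did not pass: r was 0.537 for miR-133b-3p (exact permutation, adjusted p = 0.207), 0.502 for miR-208a-3p (0.225) and 0.462 for miR-208b-3p (0.257).

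Within sham r with miR-1a-3p was 0.926 for miR-208a-3p (n = 6, exact permutation p = 0.0153, adjusted 0.0459; rho 0.943, p = 0.0167, adjusted 0.0668) and 0.938 without sham 2 and sham 4. For miR-133a-3p it was 0.922 (exact permutation p = 0.00972, adjusted 0.0459; rho 0.943, p = 0.0167, adjusted 0.0668), and 0.696 without those 2 libraries. For miR-206-3p it was 0.870 (exact permutation p = 0.0153, adjusted 0.0459; rho 0.829, p = 0.0583, adjusted 0.140), and 0.587 without them. The others did not pass: r was 0.835 for miR-499-5p (exact permutation, adjusted p = 0.0881), 0.818 for miR-133b-3p (0.0881) and -0.178 for miR-208b-3p (0.833). In rank terms no relation passed after adjustment in either group, and differences in r between the groups were not tested.

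**Figure D5:**
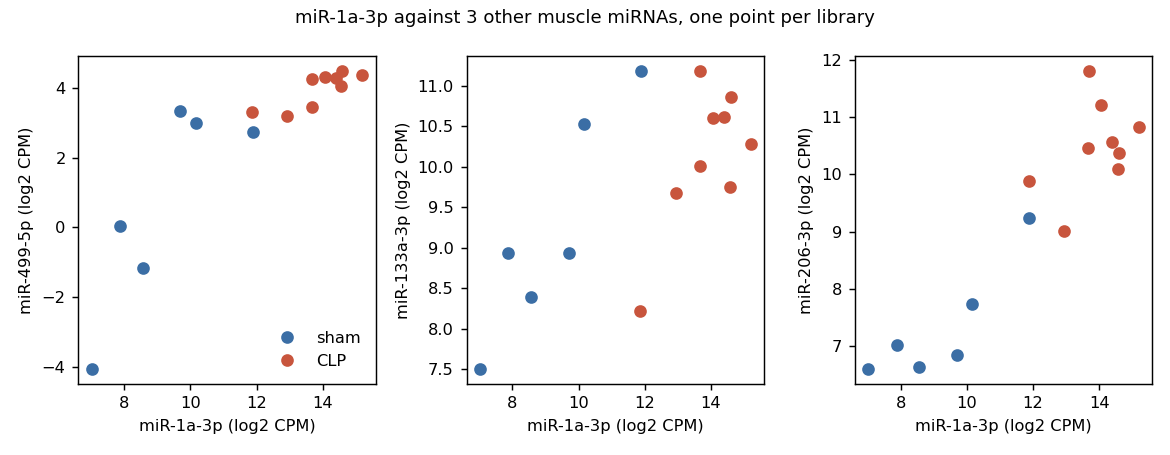
Log2 CPM of miR-1a-3p against miR-499-5p, miR-133a-3p and miR-206-3p, one point per library. Within the 9 CLP points r is 0.813, 0.692 and 0.408 in that order, and CLP 5 is the CLP point farthest to the left.

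Among 248 other miRNAs whose mean reached 10 CPM, those whose log2 CPM followed miR-1a-3p most closely over the 9 CLP libraries were miR-125b-2-3p (r = 0.880), miR-130a-3p (0.817), miR-499-5p (0.813), miR-15a-5p (0.808) and miR-103-3p (0.780). miR-133a-3p was followed most closely by miR-676-5p (r = 0.934), miR-133b-3p (0.924), miR-100-5p (0.882), the smooth muscle miR-145a-5p (0.832) and miR-409-5p (0.826). Each nearest list thus held 1 other member. These are the highest of many correlations over few libraries and are given as a description.

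The counts of the other lists stand against 25.4% called higher and 21.8% called lower over all tested miRNAs. Of 14 tested miRNAs that act in muscle growth but are made in many tissues, 4 rose and 3 fell, shares near that background, with a median log2 fold change of -0.41 against 0.11 over all tested. miR-22-3p rose from 29869 ± 7318 CPM (SD, n = 6) to 114353 ± 61575 (n = 9) while miR-26a-5p fell from 3535 ± 877 to 1984 ± 474. The red cell and muscle entry miR-486a/b-5p (log2 fold change -0.70 ± 0.33, edgeR adjusted p = 0.0867) and miR-23a-3p (-0.33 ± 0.30, 0.382) did not pass.

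Of the smooth muscle list 2 of 4 rose, both arms of the miR-145a hairpin: miR-145a-3p by 1.62 ± 0.42 on the log2 scale (edgeR adjusted p = 0.00354) and miR-145a-5p by 1.61 ± 0.40 (0.00268). miR-143-3p (-0.07 ± 0.42, edgeR adjusted p = 0.893) and miR-143-5p (-0.25 ± 0.38, 0.615) did not pass. The summed level of the list ran from 16013 to 139568 CPM in sham and from 44008 to 105326 in CLP. Of 7 liver miRNAs 3 rose and none fell, with summed levels of 23733 to 47435 CPM in sham and 18331 to 155425 in CLP. The most abundant of them in sham, miR-192-5p (0.55 ± 0.29, edgeR adjusted p = 0.122), and the hepatocyte miR-122-5p (1.39 ± 0.76, 0.139) did not pass, whereas miR-148a-3p rose by 1.79 ± 0.24 (7.48e-06) and miR-194-5p by 0.84 ± 0.33 (0.0423).

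Of 7 tested red cell entries 1 rose and 1 fell, miR-20b-5p and miR-451a, and the list sum ran from 158645 to 457388 CPM in sham and from 82953 to 380279 in CLP. miR-144-3p (-0.10 ± 0.38, edgeR adjusted p = 0.838) and miR-16-5p (0.09 ± 0.23, 0.778) did not pass. A haemolysis index was taken as the log2 ratio of the red cell miR-451a to miR-23a-3p, and averaged -0.44 ± 0.67 in the 6 sham libraries and -1.41 ± 0.99 in the 9 CLP libraries (SD). It was -1.28 in sham 4, 0.72 in CLP 5, -2.15 in CLP 4, where 3 members were at their CLP lowest, and -0.38 in CLP 6, where miR-499-5p was at its highest. How the index went with the members over the libraries was not tested. With the index as a covariate miR-1a-3p was at 3.63 (edgeR adjusted p = 0.000324) and miR-206-3p at 2.54 (0.000244). The index was lower on average in CLP, so the covariate and surgery cannot be fully told apart. Of 7 platelet miRNAs 2 rose and 3 fell, and their sum ran from 49400 to 68937 CPM in sham and from 30820 to 42919 in CLP. miR-191-5p changed by -2.78 ± 0.28 (edgeR adjusted p = 4.37e-07), miR-24-3p by 0.84 ± 0.18 (0.00111), miR-21a-5p by 1.28 ± 0.23 (0.000186) and miR-151-3p by -1.05 ± 0.20 (0.000350). The part of smooth muscle, liver and platelet RNA in the result was not tested.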

How the data were processed

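Small RNA was sequenced from plasma, 100 ul per sample, with library input of 100 ng RNA, per the labels' protocols. The deposited table holds expected counts per mature miRNA, not scaled for depth, of which 4.56% of entries were not whole. Its name gives exceRpt as the source, and the submitters' processing notes name the build mm10. Aligner, mismatches and trimming are not given in the sources used here. Counts were rounded for testing.

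miRNAs were kept by filterByExpr, scaled by TMM and tested with the robust quasi-likelihood F test of edgeR 4.0.16 in R 4.3.3, with no covariate, over all 15 libraries. The threshold was an adjusted p of 0.05, and the biological coefficient of variation was 0.463. The SE was derived from the fold change and its F value (absolute log2 value over root F). Ratios used a pseudocount of 0.5, and log2 CPM for correlations a prior count of 0.5. Alternatives included DESeq2 1.42.0 and limma 3.58.1 voom. The GC trend was a line per library over 373 tested miRNAs with a RefSeq sequence (87.6%), removed as an offset. The fit was tested on simulated data. Libraries within a group all differed beyond counting noise (lowest chi-square per degree of freedom 288 in sham and 441 in CLP).

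The members and lists were chosen with earlier results of these data known. All members were named, with up to 4 of each list by mean CPM and the 5 most like patterns. miR-20b-5p, the only red cell entry that rose, was named after its value was seen.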

Additional observations from a re-analysis of the deposited data

Results flagged for a closer look

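The level of miR-208b-3p in sham 6 stood apart from the other sham libraries: its log2 CPM was -0.26 (0.772 CPM, 8 counts), while the other 5 sham libraries had 0 counts, so the gap was the whole range of the group, a ratio of 1.0 where 0.625 is the limit for 6 libraries. Of 24 groups of values examined (7 miRNAs and 5 ratios in 2 groups) this was the only one past its limit. With 5 sham libraries at 0 counts, any reads in sham 6 give a ratio of 1.0. The flag thus does not measure how far sham 6 stands apart. Chance alone passes about 1 group in 20 where values are not tied.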

How the results depend on the processing

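The fold changes of miR-1a-3p, miR-206-3p and miR-208b-3p kept their direction and stayed past the threshold under every alternative that tested them, with ranges (other than on leaving out a library) of 3.63 to 4.77, 2.54 to 3.15 and 3.86 to 4.81. miR-208b-3p was not tested under the stricter filter, in the 12-library fits or in 6 of 15 fits without a library, because it fell under the filter. In the fits that used the filter it entered through its CLP libraries, so its staying past the threshold there is a description. Library size scaling moved the median log2 fold change of all miRNAs from 0.11 to -0.12, with no change of direction in any member. The call of miR-499-5p was lost with no filter (1.93), in the 12 libraries numbered 1 to 6 (1.82), and with the GC trend removed (1.39), and it ranged from 1.59 to 2.37 on leaving out 1 library. miR-208a-3p passed with limma voom (1.74) and miR-133b-3p with the haemolysis index as a covariate (-1.38). With no filter 307 miRNAs were called, 167 of them lower, against 201 and 93; 71 were called higher with at least 10 CPM in 6 libraries, against 108. More miRNAs (all with a read) and fewer were tested in these; for the other changes the cause was not tested.

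Same-numbered sham and CLP libraries did not deviate together (correlations of -0.13 to -0.01, none of 6 closest to its own number), so the numbers were not taken as pairs. A fit blocked on replicate number, over 12 libraries, gave 71 miRNAs called higher, and miR-499-5p was at 2.63, or 2.09 with the GC trend also removed, and did not pass. Over 6 blocks the ratio differences were 3.61 for miR-1a-3p over miR-133a-3p, 3.58 for miR-206-3p over miR-133b-3p, 1.36 for miR-1a-3p over miR-206-3p, 1.33 for miR-133a-3p over miR-133b-3p and 3.39 for miR-208b-3p over miR-208a-3p. None passed (exact sign-flip test, smallest adjusted p 0.0521), where 6 pairs allow no unadjusted p below 0.0312. The miR-208b-3p ratio did not pass with a pseudocount of 2 (1.5). Within CLP, r of miR-1a-3p with miR-133b-3p was 0.537 and ranged from -0.0897 without CLP 5 to 0.703 without CLP 9. The depth limits miR-208b-3p and miR-499-5p in sham.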

Other observations

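Rows for the opposite arms of the muscle hairpins, other than miR-133a-5p given above, held few reads, as did the row of miR-133c. miR-1a-1-5p, the opposite arm of the Mir1a-1 hairpin, had 0 to 8 counts in sham and 0 to 13 in CLP (0.534 ± 0.442 CPM, SD, n = 6, and 0.747 ± 0.695, n = 9), and was too low to be tested. miR-208a-5p, opposite to miR-208a-3p, had 0 counts in all 6 sham libraries and up to 5 counts in 7 of the 9 CLP libraries. miR-499-3p had up to 2 counts in 2 CLP libraries and none in sham, and miR-1a-2-5p had 2 counts in 1 CLP library and none in sham. miR-133c had up to 2 counts in 3 sham libraries and none in CLP. The rows of miR-1b, miR-206-5p, miR-133b-5p and miR-208b-5p were not among the 1205 of the table.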
